A study of Mus musculus with 6 samples.

Results

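Transcript levels of 8 genes of NF-kB signalling and inflammation were followed in mouse embryonic stem cells with an intact or a disrupted Ddx5 gene, which encodes an RNA helicase also called p68. The genes are the chemokines Cxcl1 and Ccl2, the tumour necrosis factor (TNF) induced gene Tnfaip2, the TNF receptor gene Tnfrsf1a, the NF-kB subunit genes Rela, Nfkb1 and Nfkb2, and the inhibitor gene Nfkbia. They were taken by name from the table, where all 8 are present among 10989 genes, and they were selected on their knockout and wild-type levels in these libraries as well as on their pathway. Their differences between the groups are therefore given as a description, without p-values.

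The Ddx5 knockout (KO) group held 4 libraries, each from a line grown from 1 clone of MPI-II stem cells cut in the second exon of Ddx5 with a Cas9 nickase and paired guides, under G418 selection. The wild-type (WT) group held 2 libraries of MPI-II cells with intact Ddx5, numbered as replicates. Nothing in the labels says that these came from separate cultures, so the spread between them may be technical. Feeder cells lay under the cultures of both groups, whose medium held serum, the GSK3 inhibitor CH99021, the MEK inhibitor PD0325901 and leukemia inhibitory factor, and neither group is labelled as having received TNF or another inflammatory stimulus.

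NF-kB is a family of dimeric transcription factors that wait in the cytoplasm bound to inhibitor (IkB) proteins. Signals such as TNF, acting through the receptor that Tnfrsf1a encodes, activate the IkB kinase (IKK), the inhibitor is degraded, and the dimer enters the nucleus. Among its targets are chemokines, adhesion molecules and its own inhibitors. Pluripotent stem cells are known for a weak NF-kB response, while fibroblasts answer TNF and interleukin-1 with strong chemokine expression.

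Levels are in deposited units, a normalized score without a fixed unit whose library totals lay between 14612799 and 14722877. Read depth is unknown, and a library with more or less RNA overall would not show it in this score. Ddx5 itself stood at 5659 to 12793 units in the KO lines against 36433 and 36436 units in WT, so the KO mean was 22.5% of the WT mean and transcript was measured in every KO line. Of 20 embryonic stem cell markers, 3 were higher, 3 lower and 14 not called in KO cells. The shares of all genes called were 7.34% lower and 9.75% higher. Prdm14 (log2 0.92), Nanog (0.89) and Dppa2 (0.51) were higher, and Nr0b1 (-1.41), Klf4 (-0.94) and Dnmt3l (-0.84) lower. Klf4 alone of these kept its call with each library left out. Pou5f1 (Oct4), which was not called, lay at 13545 to 17548 units in the KO lines against 17548 and 14346 units in WT. Some high values repeat exactly: 17548 units was given to Pou5f1 in KO lines 1 and 3 and WT replicate 1, and to the marker Dppa5a in WT replicate 2. Percentages and differences at high levels are therefore those of the score, not of transcript amount. A value of 0 was given to 131 genes in WT replicate 2 and to 13 to 19 genes in each other library. Log2 differences are KO minus WT on the log2(scaled value + 1) scale, where 1 scaled unit is 14.7 deposited units, and they understate the change of low genes. A gene counts as called at an adjusted p below 0.05 in limma over all genes.

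The chemokines and Tnfaip2 were close to the bottom of the scale in all KO lines and well measured in both WT libraries. Cxcl1 (ENSMUSG00000029380, chromosome 5, 90891241 to 90893115, plus strand, mm10), a CXC chemokine that attracts neutrophils, lay at 2, 6, 10 and 8 units in KO lines 1 to 4 and at 762 and 312 units in WT replicates 1 and 2. The groups lay far apart, since the highest KO line reached 10 units and the lowest WT library 312. The mean was 6.5 ± 3.42 units in KO lines (SD, n = 4) and 537 ± 318 units in WT (SD, n = 2), so that the KO lines held 1.21% of the WT level. The log2 difference was -4.59 (SE 0.435), and 3 of the 10989 genes had a more negative one.

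Ccl2 (ENSMUSG00000035385, chromosome 11, 82035571 to 82037453, plus strand), a CC chemokine that attracts monocytes, lay at 24, 4, 8 and 12 units in KO lines 1 to 4, against 425 and 209 units in WT replicates 1 and 2. KO line 1 was the highest of the KO lines and still below both WT libraries. The KO mean of 12 ± 8.64 units (SD, n = 4) was 3.79% of the WT mean of 317 ± 153 units (SD, n = 2), a log2 difference of -3.61 (SE 0.452). The whole gene is overlapped by Gm17268 on the opposite strand, and whether reads were counted by strand is not given in the sources used here.

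Tnfaip2 (ENSMUSG00000021281, chromosome 12, 111442469 to 111455018, plus strand), first described as a gene induced by TNF, lay at 2, 8, 7 and 5 units in KO lines 1 to 4 and at 770 and 230 units in WT replicates 1 and 2. No KO line reached 10 units, and WT replicate 1 was far above WT replicate 2. The KO mean was 5.5 ± 2.65 units (SD, n = 4), 1.1% of the WT mean of 500 ± 382 units (SD, n = 2), with a log2 difference of -4.45 (SE 0.511). An antisense gene, Gm40578, overlaps 4614 bases of it.

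**Figure D1:**
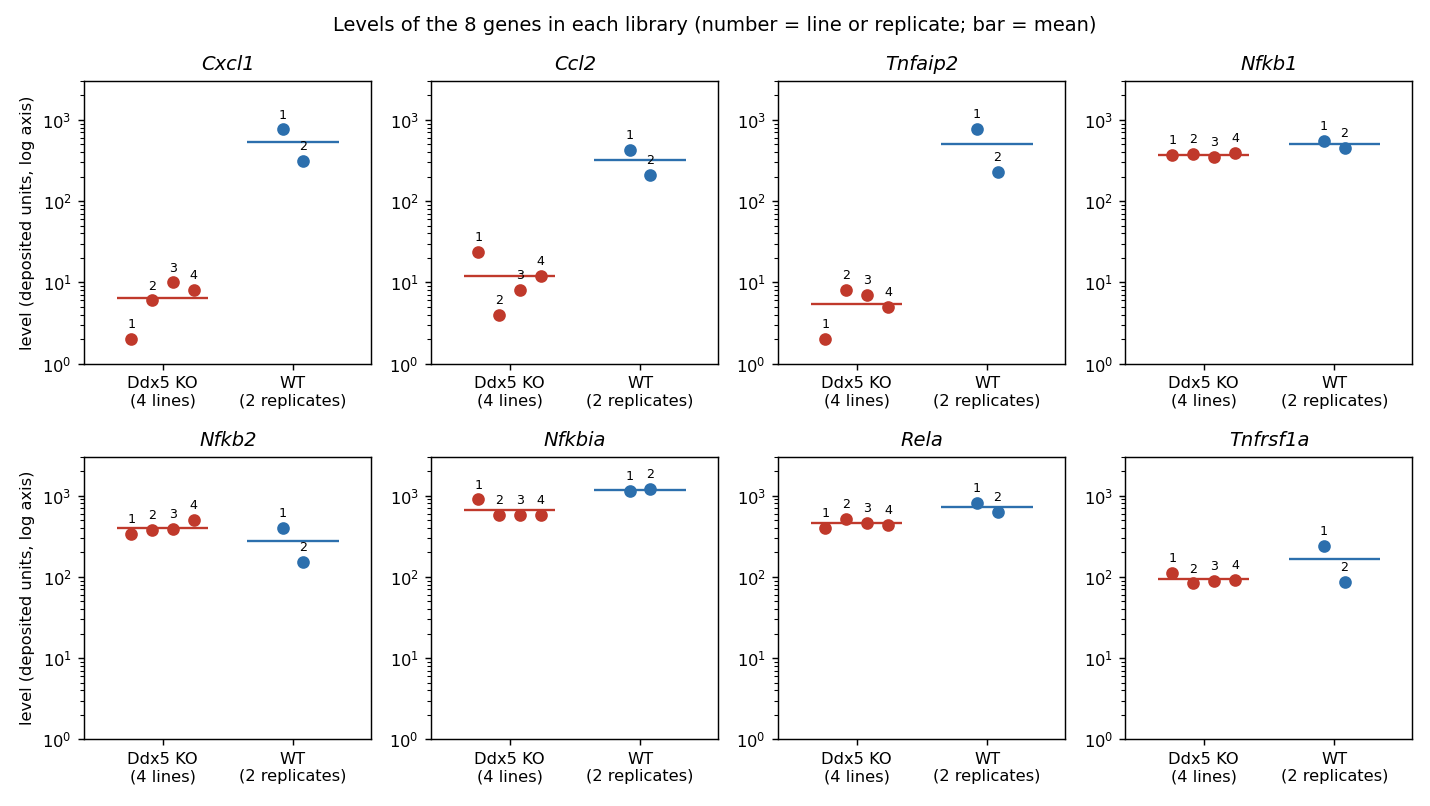
Level of each of the 8 genes in deposited units (log axis) in the 4 Ddx5 KO lines (red, left) and the 2 WT replicates (blue, right); numbers mark the line or replicate and bars the group mean. Cxcl1, Ccl2 and Tnfaip2 lie between 2 and 24 units in the KO lines and between 209 and 770 units in WT, while the other genes differ far less and Nfkb2 and Tnfrsf1a overlap.

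The inhibitor and the subunit genes differed by much smaller amounts. Nfkbia (ENSMUSG00000021025, chromosome 12, 55489410 to 55492647, minus strand) encodes IkB-alpha, which holds NF-kB in the cytoplasm and is itself a rapid NF-kB target. Its level was 896, 579, 576 and 578 units in KO lines 1 to 4 and at 1148 and 1196 units in WT replicates 1 and 2. KO lines 2 to 4 lay within 3 units of each other, KO line 1 lay between them and the WT libraries, and the groups did not overlap. The KO mean of 657 ± 159 units (SD, n = 4) was 56.1% of the WT mean of 1172 ± 33.9 units (SD, n = 2), a log2 difference of -0.85 (SE 0.197).

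Rela (ENSMUSG00000024927, chromosome 19, 5637483 to 5648130, plus strand) encodes p65, the main activating subunit. Its level was 401, 516, 464 and 430 units in KO lines 1 to 4, against 806 and 632 units in WT replicates 1 and 2. All KO lines were below both WT libraries, at a mean of 453 ± 49.4 units (SD, n = 4) against 719 ± 123 units (SD, n = 2), a log2 difference of -0.65 (SE 0.151).

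Nfkb1 (ENSMUSG00000028163, chromosome 3, 135584655 to 135691547, minus strand), whose p105 product is processed to the subunit p50, lay at 366, 377, 348 and 393 units in KO lines 1 to 4 and at 556 and 449 units in WT replicates 1 and 2. The groups did not overlap, but WT replicate 2 was only slightly above KO line 4. The log2 difference was -0.42 (SE 0.129), and Nfkb1 was not among the called genes. An unconfirmed transcript, Gm43430, overlaps 3897 bases of it on the same strand.

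Nfkb2 (ENSMUSG00000025225, chromosome 19, 46304320 to 46312385, plus strand), whose p100 product is processed to p52 in the non-canonical pathway, was the 1 gene of the 8 with a higher mean in KO cells. Its level was 340, 375, 388 and 496 units in KO lines 1 to 4 and at 399 and 154 units in WT replicates 1 and 2. The KO lines lay around WT replicate 1 and above WT replicate 2, so the groups overlapped, and the log2 difference of 0.64 (SE 0.342) was not called. It became -0.01 without WT replicate 2 and 1.28 without WT replicate 1. It overlaps 2 genes on the opposite strand, the long non-coding RNA gene AC114539.1 over 1292 bases and the protein-coding gene Psd over 299 bases.

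Tnfrsf1a (ENSMUSG00000030341, chromosome 6, 125349362 to 125362484, plus strand), which encodes TNF receptor 1, behaved in a similar way between the WT libraries. Its level was 112, 83, 88 and 92 units in KO lines 1 to 4 and at 242 and 86 units in WT replicates 1 and 2. WT replicate 2 lay among the KO lines and WT replicate 1 above all of them. The log2 difference of -0.58 (SE 0.372) was not called, and it was -1.25 without WT replicate 2 and 0.1 without WT replicate 1. The genes of chromosome 6 stood higher in KO line 4 than in the other KO lines (median log2 0.45, 518 genes), yet Tnfrsf1a in KO line 4 lay within the range of the other lines. For the chromosomes of the other 7 genes this median was between -0.05 and 0.05 in each KO line.

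Over the 8 genes, 5 were called lower (Cxcl1, Ccl2, Tnfaip2, Nfkbia and Rela), none higher, and 3 were not called, where 7.34% of all genes were called lower and 9.75% higher. The 4 KO lines lay below both WT libraries for 6 of the 8, where this held for 19.6% of all genes. Since the genes were chosen with these values known, nothing is read from these counts. The median log2 difference of the 8 was -0.75, against 0.043 over all genes. Leaving out 1 KO line at a time, the number called lower was 3 without KO line 2, 3 or 4 (Cxcl1, Ccl2 and Tnfaip2) and 4 without KO line 1. With any 1 of the 6 libraries left out, the log2 difference ran from -5.21 to -3.96 for Cxcl1. It ran from -4.09 to -3.12 for Ccl2 and from -5.29 to -3.61 for Tnfaip2. These fits give no support to the differences, since the genes were chosen on their levels in the same libraries.

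**Figure D2:**
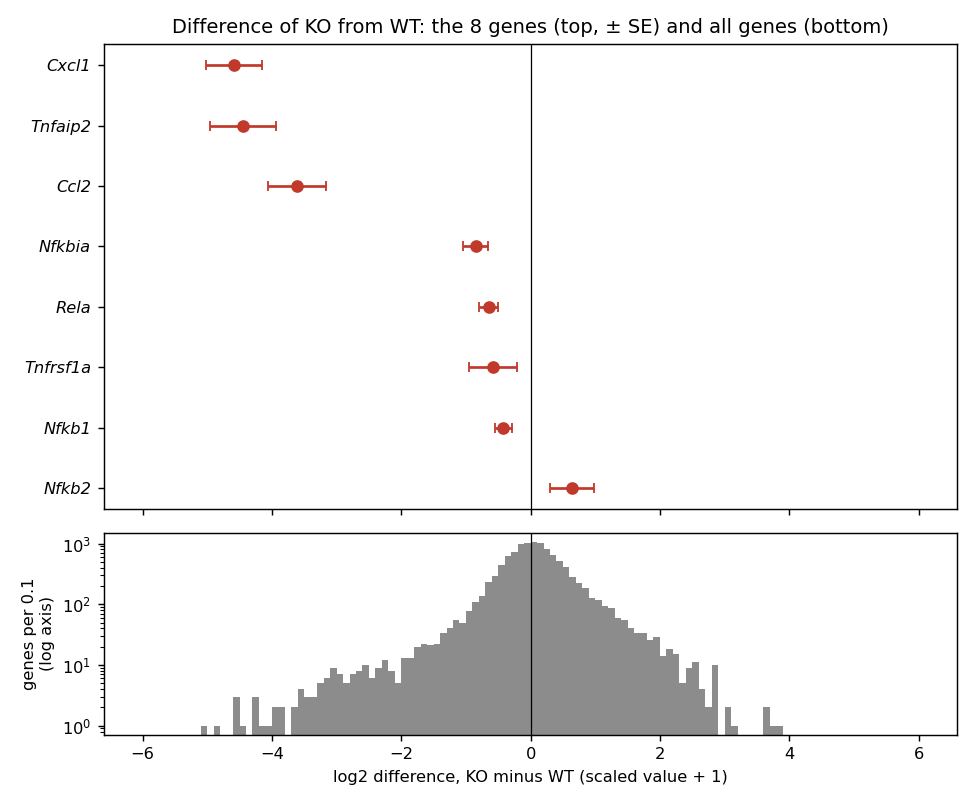
Log2 difference, KO minus WT, of the 8 genes with its standard error (top; 4 KO lines against 2 WT replicates) above a histogram of the same difference over all 10989 genes (bottom, log count axis). Cxcl1, Tnfaip2 and Ccl2 lie in the far lower tail at -4.59, -4.45 and -3.61, and the other 5 genes between -0.85 and 0.64.

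Sequences just upstream of the start are shown for Cxcl1 and Nfkbia, because both windows hold the same kB-type 10-base word while the size of their differences is unlike. The words GGGNNTTTCC and, as a looser form that includes it, GGGNNNNNCC were searched on both strands in the 250 bases before each RefSeq start (GRCm38.p6, the mm10 assembly). Of the 8 genes 6 had such a window, and Ccl2 and Nfkb1 did not. RefSeq and GENCODE starts differ, so part of some windows lies in GENCODE exons. Both sequences are written 5' to 3' along the gene, with bases that GENCODE M21 places in an exon left off, and capitals mark matches of GGGNNTTTCC on either strand.
Cxcl1, chr5:90890995-90891240, plus strand: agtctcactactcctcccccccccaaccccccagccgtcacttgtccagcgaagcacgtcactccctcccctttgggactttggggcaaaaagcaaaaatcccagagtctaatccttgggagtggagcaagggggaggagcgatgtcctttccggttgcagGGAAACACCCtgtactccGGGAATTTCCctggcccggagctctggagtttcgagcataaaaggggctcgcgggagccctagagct
Nfkbia, chr12:55492648-55492897, minus strand: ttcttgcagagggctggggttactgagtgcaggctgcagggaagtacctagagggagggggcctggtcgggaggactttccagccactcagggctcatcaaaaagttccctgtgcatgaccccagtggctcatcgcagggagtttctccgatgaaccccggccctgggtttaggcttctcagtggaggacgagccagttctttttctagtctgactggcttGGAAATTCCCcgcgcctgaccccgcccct

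GGGAATTTCC occurs 71 bases before the Cxcl1 start on the gene's strand, and again 29 bases before the Nfkbia start on the other strand, where it reads GGAAATTCCC above. The Cxcl1 window holds a second match, GGGTGTTTCC, on the other strand 89 bases before the start. Of the 3 Nfkb2 start sites, 2 had a match, GGGGCTTTCC at 11 bases and GGGACTTTCC at 225 bases before the start. GENCODE exons cover 250 and 234 of the 250 bases of these windows, and both matches lie in annotated exons. The windows of Tnfaip2, Rela and Tnfrsf1a held no match of this word and 5, 3 and 1 of the looser one. Of the 250 bases of the Tnfaip2 window, 192 lie in a GENCODE exon, so little of it is upstream sequence by that annotation. The Tnfrsf1a window, 125349473 to 125349722, lies wholly inside the GENCODE gene, which starts at 125349362, so none of it is upstream there. Among all 32851 start sites, 1.41% held GGGNNTTTCC and 45.8% held GGGNNNNNCC. The word was thus present before Cxcl1, at 1.21% of the WT level in KO cells, and before Nfkbia, at 56.1%. A match is a run of letters and not evidence of binding, and these windows do not cover distant sites.

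Beyond the direction of the difference, the 8 genes differed in how steady they were within each group. Among the KO lines, the SD of the log2 level ran from 0.07 for Nfkb1 to 0.45 for Ccl2, with a median of 0.21 against 0.145 over all genes. For Cxcl1, Ccl2 and Tnfaip2, at 2 to 24 units in the KO lines, the value of 1 added before the log shapes this SD. It is not a measure of steadiness for them. Between the WT libraries, 7 of the 8 genes were higher in replicate 1, all but Nfkbia, with a median log2 difference of replicate 1 minus replicate 2 of 1.11 against 0.042 over all genes. It was 1.68 for Tnfaip2, 1.35 for Tnfrsf1a, 1.29 for Nfkb2, 1.25 for Cxcl1 and 0.97 for Ccl2, each above that of at least 93.9% of all genes. It was 0.34 for Rela, 0.3 for Nfkb1 and -0.06 for Nfkbia.

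The difference from the KO lines varied with the WT library it was set against. Set against WT replicate 1 alone, the KO mean of Cxcl1 was lower by a log2 difference of -5.21, and against WT replicate 2 alone by -3.96. For Tnfaip2 the values were -5.29 and -3.61, and for Ccl2 -4.09 and -3.12. Nfkbia differed least between the WT libraries, at -0.82 and -0.88.

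Markers of feeder fibroblasts, as a set, were also highest in WT replicate 1, then in WT replicate 2, and lowest in the KO lines. Among the KO lines their mean log2 level was highest in line 1. In that line Ccl2 was at its highest KO level (24 units), and Cxcl1 and Tnfaip2 at their lowest (2 units each). The KO levels of these genes lie close to the bottom of the scale, so nothing is read from the order of the lines. Of 42 measured fibroblast markers, 34 were called lower, 1 (Nid2) higher and 7 were not called in KO cells, with a median log2 difference of -2.46. Their summed level was 66538 to 74919 units in the KO lines, against 148864 and 97266 units in WT replicates 1 and 2. Fn1, which was not called, alone made up 36452 units of the sum in each KO line and in WT replicate 1. In WT replicate 2 it made up 29855 units. The mean log2 level of the markers was 3.84 to 4.34 in the KO lines against 6.85 and 6.08 in WT replicates 1 and 2. Between the WT libraries, 37 of the 42 were higher in replicate 1 (median log2 0.72). Col6a3 was at 0 in KO line 4, and no other marker of the list was at 0 in any library. Of 18 leukocyte markers 2 were measured, and neither was called: Cd68 lay at 72 to 166 units in the KO lines against 400 and 187 units in WT, and Laptm5 at 2146 to 2539 units in the KO lines against 3018 and 2172 units in WT. What part the fibroblast markers have in the levels of Cxcl1, Ccl2 and Tnfaip2 was not tested, and in bulk RNA fewer cells of a type and less RNA per cell cannot be told apart.

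**Figure D3:**
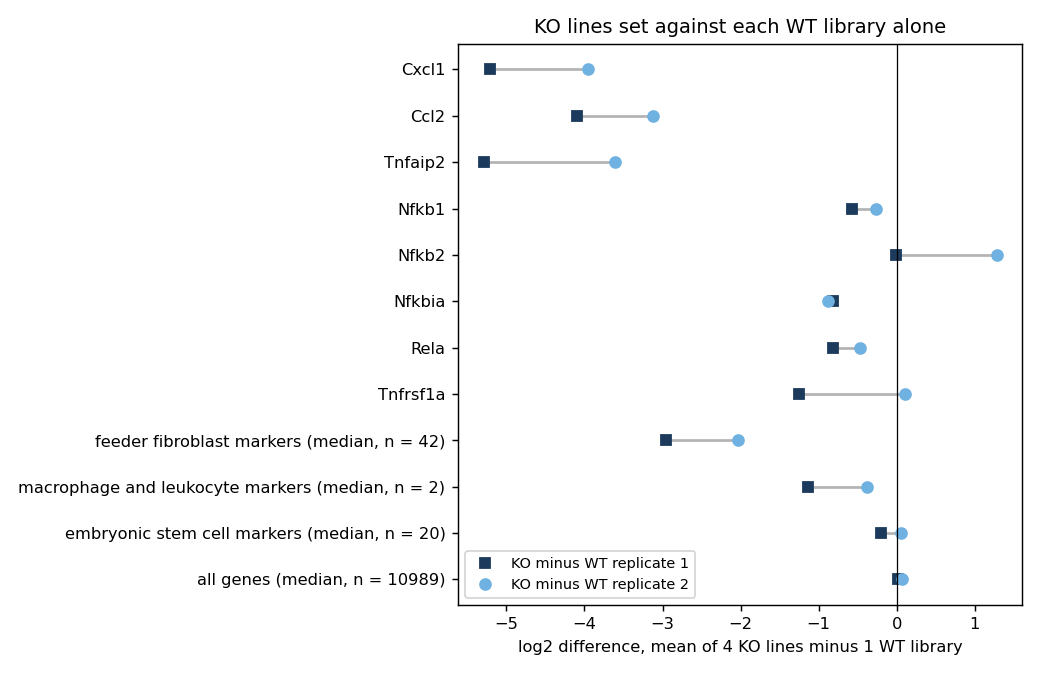
Log2 difference of the mean of the 4 KO lines minus WT replicate 1 (dark squares) or WT replicate 2 (light circles) for the 8 genes, and its median for the marker lists and all genes. The difference from WT replicate 1 is the more negative one for 7 of the 8 genes and for the fibroblast markers (-2.95 and -2.03), whereas Nfkbia lies at -0.82 and -0.88 and all genes at 0.02 and 0.06.

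Genes with the most similar pattern over the 6 libraries were found by the root mean square (RMS) difference of log2 levels after centring each gene on its own mean. Cxcl1 and Tnfaip2 were each other's nearest gene (RMS 0.181), and the other nearest genes of both were Col6a2, a type VI collagen chain (RMS 0.291 from Cxcl1, 0.365 from Tnfaip2), and the growth factor gene Igf2 (0.337 and 0.319). Ccl2 lay nearest to the matrix genes Tnc (tenascin C, 0.241), Col12a1 (0.248) and Bgn (biglycan, 0.25). Each of these is high in both WT libraries, highest in replicate 1, and low in all KO lines. Nfkb1 lay nearest to Tsc1 (0.034), Stt3a and Polr3c, and Rela to Fnip1 (0.0975), Pcmt1 and Msn. Nfkbia lay nearest to Gpa33 (0.0897), Dact2 and Rplp2. Nfkb2 lay nearest to Ccdc126 (0.0668), Kpna2 and Tenc1, and Tnfrsf1a to Pdzrn3 (0.0737), Nr1d1 and Trib1. With 6 libraries and a difference between the groups, such likeness is a description only.

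Of 53 listed chemokine and receptor genes outside the 8, 4 were measured, of which the chemokines Cxcl14 and Cxcl12 were called lower in KO cells and 2 genes were not called. Over all genes, 7.34% were called lower and 9.75% higher. Listed genes without a deposited value could not be counted, and nothing particular to the list is read from 4 genes. Cxcl14, a chemokine of epithelia and fibroblasts, lay at 31, 16, 14 and 16 units in KO lines 1 to 4, against 376 and 368 units in WT. The WT libraries were close to each other and more than 10 times any KO line (log2 -3.54, SE 0.305, adjusted p = 0.00271, limma). Cxcl12, the stromal ligand of Cxcr4, stood at 22, 7, 7 and 12 units in the KO lines and at 126 and 199 units in WT, here with WT replicate 2 the higher (log2 -2.73, SE 0.425, adjusted p = 0.0104, limma). Cxcl12 lies on chromosome 6, and its level in KO line 4 lay within the range of the other lines. Cxcl14 and Cxcl12 stayed called whichever library was removed. Ccl25 (58, 86, 75 and 114 units in KO lines 1 to 4, 70 and 108 in WT) and the scavenging receptor gene Ackr3 (64 to 150 units in KO lines, 134 and 44 in WT) were not called. Ccl25 lies on chromosome 8, whose genes stood lower in KO line 1 than in the other KO lines (median log2 -0.5) and lower in WT replicate 1 than in WT replicate 2 (-0.41), and these are the libraries with its lowest levels in each group.

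Of 19 measured subunit, IkB and IKK genes outside the 8, 3 were lower, 1 higher and 15 not called (median log2 -0.1, against 0.043 over all genes). Over all genes 17.1% were called, 7.34% lower and 9.75% higher, and nothing particular to the list is read from its counts. Nfkbiz, an inducible nuclear IkB protein, lay at 70, 55, 60 and 74 units in KO lines 1 to 4 and at 294 and 116 units in WT, with the groups apart and WT replicate 1 far the highest (log2 -1.34, SE 0.359, adjusted p = 0.0452, limma). Relb, the partner of p52, averaged 270 ± 34.1 units in KO lines (SD, n = 4) and 458 ± 90.5 units in WT (SD, n = 2; log2 -0.72, adjusted p = 0.0327, limma).

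Chuk, which encodes the kinase IKK-alpha, averaged 747 ± 35.4 units in KO lines (SD, n = 4) and 1072 ± 50.9 units in WT (SD, n = 2; log2 -0.51, adjusted p = 0.0179, limma). Bcl3, a nuclear IkB protein that binds p50 and p52, moved the other way, to 652 ± 57.9 units in KO lines (SD, n = 4) against 430 ± 2.83 units in WT (SD, n = 2; log2 0.58, adjusted p = 0.0214, limma). The calls rest on few libraries. None of the 19 was called without KO line 2 or without KO line 3, the lower calls numbered 1 without KO line 1, the higher ones 0 without WT replicate 2 and 3 without WT replicate 1, and Nfkbiz kept its call only without WT replicate 2. Rel (228 to 268 units in KO lines, 286 and 262 in WT) and Ikbkb, encoding IKK-beta (316, 508, 536 and 545 units in KO lines 1 to 4, 496 and 344 in WT), were not called. Ikbkb lies on chromosome 8, whose genes as a whole stood lower in KO line 1 (median log2 -0.5), the line with its lowest level. Those genes also stood lower in WT replicate 1 than in WT replicate 2 (-0.41), whereas Ikbkb was higher in WT replicate 1.

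Upstream of IKK, among 40 measured receptors and adaptors, 5 were lower, 2 higher and 33 not called in KO cells (median log2 -0.16), where 7.34% of all genes were called lower and 9.75% higher. Il1rl1, the interleukin-33 receptor, lay at 6, 2, 2 and 3 units in KO lines 1 to 4, against 114 and 80 units in WT (log2 -2.63, SE 0.493, adjusted p = 0.0173, limma). Tnfaip3, which encodes the feedback inhibitor A20, stood at 76, 80, 39 and 88 units in KO lines and at 289 and 222 units in WT (log2 -1.69, SE 0.312, adjusted p = 0.0162, limma). In both genes every KO line lay below the WT libraries by a wide margin.

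Ripk1, the kinase recruited to TNF receptor 1, averaged 279 ± 42.3 units in KO lines (SD, n = 4) and 590 ± 22.6 units in WT (SD, n = 2; log2 -1.05, adjusted p = 0.00984, limma). Tnfrsf12a, the receptor of TWEAK, averaged 154 ± 38.1 units in KO lines (SD, n = 4) and 314 ± 39.6 units in WT (SD, n = 2; log2 -0.98, adjusted p = 0.0316, limma). Rnf31, the catalytic subunit of the linear ubiquitin ligase that acts at this receptor (log2 0.52, adjusted p = 0.0166, limma), and Ngfr, the neurotrophin receptor of the TNF receptor family (log2 0.53, adjusted p = 0.0259, limma), were higher. Of these 6 genes, Ripk1 alone kept its call with each library left out. Without KO line 2 the list had 2 lower calls, and without KO line 3 it had 3, while higher calls fell to 0 without either of them and to 1 without KO line 1, and reached 5 without WT replicate 1.

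Among 25 measured NF-kB target genes outside the chemokines, 7 were lower, 1 higher and 17 not called in KO cells, where 7.34% of all genes were called lower and 9.75% higher. The median log2 difference of the list was -0.03, against 0.043 over all genes. Csf1, the macrophage growth factor, lay at 84, 24, 62 and 18 units in KO lines 1 to 4 and at 1340 and 441 units in WT replicates 1 and 2 (log2 -3.82, SE 0.59, adjusted p = 0.0102, limma). Vcam1, an adhesion molecule for leukocytes, stood at 12, 8, 12 and 8 units in the KO lines, against 556 and 104 units in WT (log2 -3.4, SE 0.619, adjusted p = 0.0157, limma). Without WT replicate 1 these differences were -3.03 and -2.27, and the call of Vcam1 was lost without KO line 2 or 3 (adjusted p up to 0.0542, limma).

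Cd44, the hyaluronan receptor, averaged 63.8 ± 15.2 units in KO lines (SD, n = 4) and 754 ± 407 units in WT (SD, n = 2; log2 -3.21, adjusted p = 0.00449, limma), and its log2 difference was -2.64 without WT replicate 1. Slc39a14, a zinc transporter, averaged 101 ± 29.2 units in KO lines (SD, n = 4) and 372 ± 68.6 units in WT (SD, n = 2; log2 -1.76, adjusted p = 0.00989, limma). Sdc4, a heparan sulfate proteoglycan, lay at 3040, 2726, 2930 and 2476 units in KO lines 1 to 4, all above the 1605 and 1064 units of WT (log2 1.08, SE 0.172, adjusted p = 0.0112, limma). The calls of Csf1, Cd44, Slc39a14 and Sdc4 held with each library left out.

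The uncalled targets lay on both sides of 0, and the examples here were chosen after their values were seen. Icam1 stood at 1394 to 1700 units in the KO lines against 1422 and 1296 units in WT (log2 0.13), and Sod2 at 3326 to 5004 units in the KO lines against 4692 and 3280 units in WT (log2 0.17). Irf1, an interferon regulatory factor, lay at 154 to 298 units in the KO lines, below the 385 and 480 units of WT (log2 -0.92, adjusted p = 0.0679, limma). Ptgs2, the inducible cyclooxygenase, lay at 298 to 380 units in the KO lines, below the 853 and 400 units of WT (log2 -0.8, adjusted p = 0.0889, limma). In the target list, removing KO line 2 left 4 lower calls and removing KO line 3 left 3, and higher calls rose to 2 without KO line 3 and to 4 without WT replicate 1. Fibroblast markers were also lower in KO cells. Nothing is read from that shared direction, since both sets come from the same comparison. The part of the markers in the falls of these target genes was not tested.

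**Figure D4:**
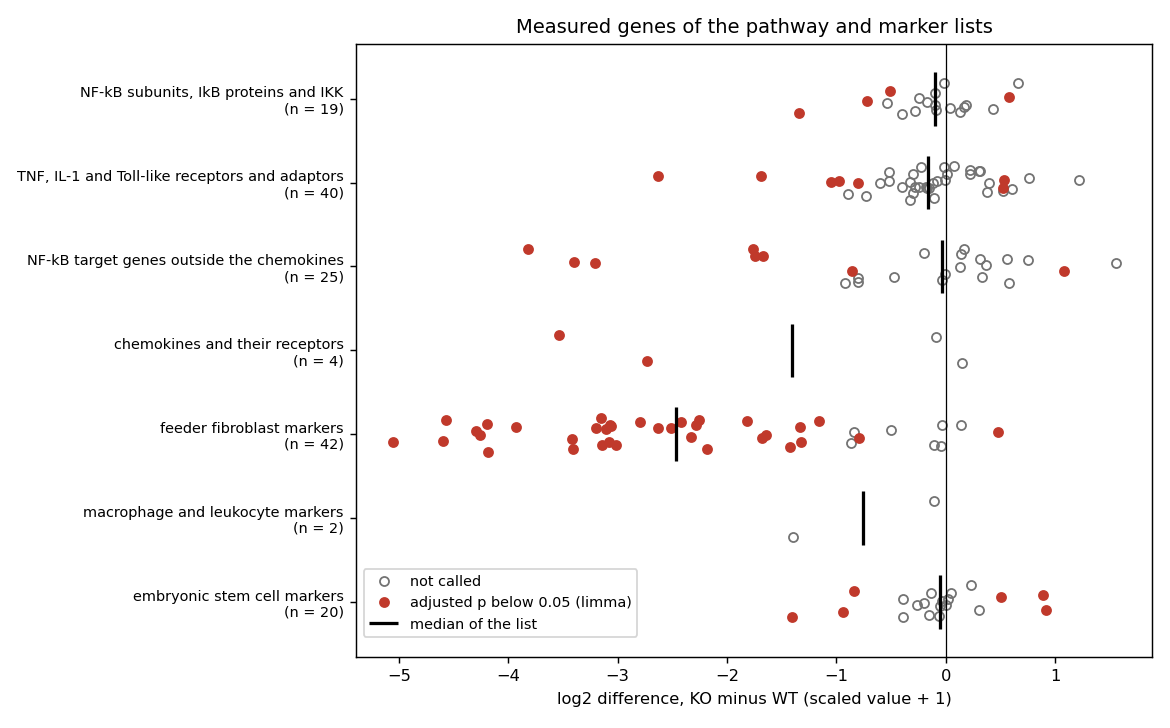
Log2 difference, KO minus WT, of each measured gene in the pathway and marker lists; filled red points passed the limma test over all genes, open points did not, and black bars are list medians. The core machinery, receptors and targets centre near 0 (-0.1, -0.16 and -0.03) with a tail of lower genes, whereas the fibroblast markers centre at -2.46.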

How the data were processed

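RNA from 4 Ddx5 KO lines and 2 WT replicates was sequenced. Per the submitters' processing notes, RSEM 1.2.17, Bowtie2 2.2.0 and the build mm10 were used, while tool roles, annotation and normalization are not stated there. The deposited values, named CPM by the authors, are whole numbers with near equal library totals, so they were treated as a normalized score. With depth unknown, counting error could not be computed.

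Scores were divided by 14.7 and log2 taken with a pseudocount of 1. The filter, a scaled value of 1 or more in 2 of all 6 libraries in each fit, removed 0 genes. KO and WT were compared with limma 3.58.1 in R 4.3.3 (trended eBayes, two-sided, 4 residual degrees of freedom), adjusted by Benjamini-Hochberg over 10989 genes, on a script tested on simulated data. The smallest p of an exact permutation test of 4 against 2 libraries is 0.0667. The 8 genes, the gene lists (subunits, receptors, targets, chemokines, other Tnfaip genes and markers) and the tests were chosen with earlier results of these data known. Genes named are the 8, up to 4 called genes in each direction per pathway list by log2 difference, and the called stem cell markers. The 3 nearest genes of each of the 8 are named too, and exceptions are stated. Of the other Tnfaip genes 3 were measured, and Tnfaip3 alone was called. Positions come from GENCODE M21 and promoter sequences from RefSeq (GRCm38.p6). Alternatives covered the pseudocount, filter, normalization, variance trend, replicate block and single libraries.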

Additional observations from a re-analysis of the deposited data

Results flagged for a closer look

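Nfkbia had 1 KO line far from the others. KO line 1 stood at 896 units, and the other KO lines at 576 to 579 units, so that the gap to the nearest line took up 0.991 of the whole KO range. All 4 lines were below the WT libraries, and without KO line 1 the log2 difference was -1.0 in place of -0.85.

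Cxcl14 stood at 31 units in KO line 1 and at 14 to 16 units in the other KO lines, a gap of 0.882 of the range between values close to the bottom of the scale. In all, 36 sets of 4 KO lines were examined for the 8 genes and the other named genes, and chance alone flags about 1 in 20 of them.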

How the results depend on the processing

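Called genes numbered 1071 higher and 807 lower. With 1 library left out the higher calls ranged from 237 to 2012 and the lower calls from 234 to 1321. Over the pathway lists together, 4 higher and 17 lower calls became 1 to 12 and 8 to 20. The median log2 difference of the 8 genes then ranged from -1.03 to -0.68. A filter at a scaled mean of 10 left 11 lower calls in the lists, since fewer genes were tested. It removed Ccl2 and Tnfrsf1a, so no median of the 8 was computed there. The fit with a replicate block called 2 higher and 18 lower genes in all, 0 and 0 in the pathway lists, and 0 of the 8 genes. KO lines 3 and 4 share their number with no WT library, so this block leaves few degrees of freedom. The loss of calls is therefore not read as an effect of pairing. The median log2 difference of the 8 was -0.66 in that fit. The line and replicate numbers share no stated origin, and deviations from the group means correlated across genes at 0.145 (number 1) and 0.097 (number 2). No direction reversed for a called gene named here. The size of the largest differences depended on the pseudocount: with 5 in place of 1, Cxcl1, Ccl2 and Tnfaip2 stood at -2.83, -2.14 and -2.68, and with 0.5 Cxcl1 and Tnfaip2 stood at -5.2 and -5.09. Levels of a few units in the KO lines limit these values.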
